A study of Mus musculus with 24 samples.

Results

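Smooth muscle contractile genes were followed in cultured mouse oligodendrocytes, the cells that form myelin, across all 24 wells of an ethanol exposure study. The set held 9 named genes of the 55359 in the count table: Acta2, Tagln, Cnn1, Myl9, Tpm1, Tpm2, Cald1, Lmod1 and Flna. They were picked by name with their measured values in all 4 groups already known. Their change at 30 mM ethanol, the difference of that change from the one at 10 mM and the difference between the control groups are therefore given below as descriptions, with counts of calls but without a p-value for any of them. Cells came from the cortex of C57BL/6J pups at postnatal days 5 to 7 and were taken by magnetic sorting for O4, a surface marker of immature oligodendrocytes. They grew on coverslips coated with poly-D-lysine and laminin, were differentiated for 3 days with the thyroid hormone T3 and were then kept for 3 more days with or without ethanol. Experiment 1 set 6 wells with 30 mM ethanol against 6 control wells, and experiment 2 set 6 wells with 10 mM ethanol against 6 control wells of its own. Controls stood in another incubator, and an effect of ethanol therefore cannot be told apart from one of the incubator; the same holds for dose, experiment and batch. The sample titles call the wells biological replicates but name no animal or culture. Whether wells came from separate animals or cultures is thus not known, and the p-values measure the spread between wells only.

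In a contractile cell, thin filaments of actin slide along myosin when the myosin regulatory light chain is phosphorylated. Tropomyosin, caldesmon and calponin sit along the thin filament and modulate this, leiomodin nucleates its actin, and filamin crosslinks filaments and ties them to membrane receptors. Serum response factor (SRF), which binds CArG boxes, drives many of these genes with its cofactors myocardin and the myocardin-related factors, and TEAD proteins bind the MCAT element in the promoters of several of them. Several of the same genes are also active in myofibroblasts, pericytes and other cells with stress fibres, so that transcripts of the set do not by themselves name a cell type.

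The promoters of 4 genes are shown because 3 of them, Acta2, Cnn1 and Myl9, belong to genes with a large fall at 30 mM and the other to Tpm1, whose fall was smaller. The windows run from 250 bases before the gene start to 50 after it and come from RefSeq in the build GRCm38.p6, whereas the counts were made on GRCm39. RefSeq windows were found for 8 of the 9 genes, all but Tagln, and Cald1 had more than 1. Capitals mark matches to any of 3 patterns, sought on both strands: the CArG box, a CArG-like run that departs from it in 1 of its inner letters, and the MCAT core, whose letters are GGAATG in the forward direction. Acta2 lies at chr19:34255324-34255623 on the minus strand, Myl9 at chr2:156775214-156775513 on the plus strand, Tpm1 at chr9:67049164-67049463 on the minus strand and Cnn1 at chr9:22099003-22099302 on the plus strand.
Acta2: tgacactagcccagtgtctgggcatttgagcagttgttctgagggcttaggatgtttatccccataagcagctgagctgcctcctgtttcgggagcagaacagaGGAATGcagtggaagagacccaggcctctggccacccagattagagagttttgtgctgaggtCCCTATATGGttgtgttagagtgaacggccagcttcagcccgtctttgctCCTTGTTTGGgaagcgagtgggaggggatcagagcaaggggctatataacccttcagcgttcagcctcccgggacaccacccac
Myl9: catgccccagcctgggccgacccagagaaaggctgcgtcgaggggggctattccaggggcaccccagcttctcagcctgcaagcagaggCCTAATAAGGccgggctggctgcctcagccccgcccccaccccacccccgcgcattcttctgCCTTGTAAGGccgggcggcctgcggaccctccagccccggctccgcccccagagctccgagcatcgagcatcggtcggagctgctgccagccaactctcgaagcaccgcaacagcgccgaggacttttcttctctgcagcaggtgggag
Tpm1: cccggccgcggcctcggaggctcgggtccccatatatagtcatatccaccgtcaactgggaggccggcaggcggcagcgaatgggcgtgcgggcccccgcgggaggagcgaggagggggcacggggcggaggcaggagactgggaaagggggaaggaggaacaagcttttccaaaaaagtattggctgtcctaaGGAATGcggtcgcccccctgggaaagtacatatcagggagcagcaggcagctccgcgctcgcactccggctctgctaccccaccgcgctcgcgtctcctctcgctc
Cnn1: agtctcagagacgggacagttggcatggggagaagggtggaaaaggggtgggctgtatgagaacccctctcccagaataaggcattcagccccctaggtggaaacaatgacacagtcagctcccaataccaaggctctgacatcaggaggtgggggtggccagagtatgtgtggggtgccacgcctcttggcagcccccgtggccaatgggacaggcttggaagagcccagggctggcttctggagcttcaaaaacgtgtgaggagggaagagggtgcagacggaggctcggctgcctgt
The Acta2 window held CArG-like runs 84 and 34 bases before the start and an MCAT core 146 bases before it. Myl9 had the only CArG box in the windows of these 8 genes, 161 bases before its start, and a CArG-like run at 99 bases. An MCAT core stood 56 bases before the start of Tpm1, 130 before Lmod1, 153 before Cald1 in 1 of its windows and, on the reverse strand, 146 before Flna. No letters of these patterns were found in the windows of Cnn1 and Tpm2. Of all 32851 RefSeq windows, 1.63% held a CArG box, 8.50% a CArG-like run, 14.7% an MCAT core and 23.0% any of these, against 6 of the 9 windows of the genes here. No matches overlapped. A match describes the sequence and does not show that a factor binds there.

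Each well gave between 1184609 and 1817028 counts of 3′ tags, reads from near the end of each transcript, so that levels below are counts scaled to library size (CPM) on the TMM scale of all wells and do not scale with transcript length. A floor of 3 counts corresponded to 1.69 to 2.51 CPM, counting error only. Oligodendrocyte markers were high throughout, with the summed level of 10 markers between 6994 and 16305 CPM. Replicate 1 at 30 mM stood apart with that highest sum, the other 5 wells of its group lying between 9454 and 9839 CPM. Without this well, the same number of contractile genes, 8, passed the test at 30 mM, and all 9 were still lower.

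At 30 mM ethanol, transcripts of the contractile set were lower than in the controls of experiment 1. Summed over the 9 genes, the level was 2169 ± 119 CPM (SD, n = 6) in the controls and 1099 ± 125 CPM (SD, n = 6) with ethanol. Calponin and the minor tropomyosin Tpm2 differed most, the smooth muscle actin, transgelin and light chain genes about 3-fold, and Tpm1, filamin and caldesmon least among those that passed the test. Of the 9 genes, 8 had an adjusted p under 0.05 in edgeR's quasi-likelihood test, every one of them lower, and Lmod1 did not. For the same 8 genes all 6 ethanol wells lay below all 6 control wells. Over all 13235 genes tested, 9.67% passed, 6.65% lower and 3.02% higher, and 3.35% were lower with no overlap between the wells. The median log2 fold change was -1.54 over the 9 genes and 0.02 over all genes. Since these genes were chosen knowing this contrast, nothing is read from the counts. Fewer cells of a type and less RNA per cell cannot be told apart in such bulk samples.

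**Figure D1:**
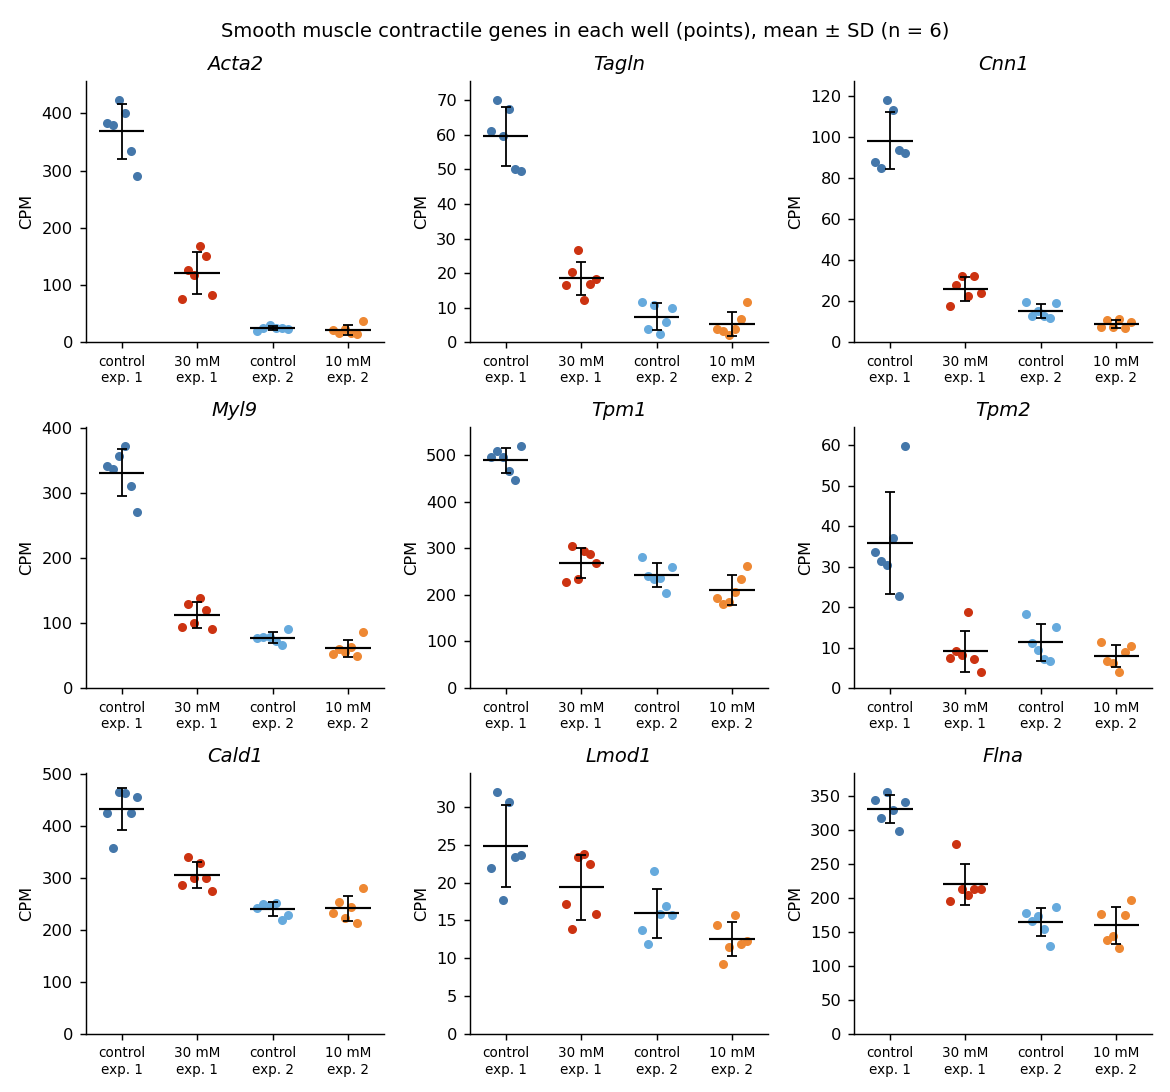
Level of each contractile gene in CPM (vertical axis, from 0) in the 24 wells. Points are wells and bars are the mean ± SD of 6 wells for the controls of experiment 1, 30 mM ethanol, the controls of experiment 2 and 10 mM ethanol. For all genes but Lmod1 the controls of experiment 1 lie above every other well.

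Acta2 encodes alpha smooth muscle actin, the thin filament actin of contractile cells. In the controls of experiment 1 its lowest, median and highest wells stood at 290, 382 and 423 CPM, and at 30 mM they stood at 75.8, 122 and 169 CPM. The highest ethanol well was thus well under the lowest control well. This was a log2 fold change of -1.60 (SE 0.111), or 3.02-fold lower. In experiment 2 the gene was scarce, with 18.9, 24.2 and 30.8 CPM in the controls and 14.1, 19.0 and 37.6 CPM at 10 mM. The 10 mM wells straddled their controls, 1 well (replicate 6) lying above all of them. The log2 fold change at 10 mM was -0.18 (SE 0.168, edgeR adjusted p = 0.786), with a 95% interval from -0.51 to 0.16.

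Myl9 encodes the regulatory light chain of smooth muscle myosin, whose phosphorylation switches contraction on. Its wells stood at 270, 338 and 372 CPM (lowest, median and highest) in the controls of experiment 1 and at 91.0, 110 and 138 CPM at 30 mM. Controls and ethanol wells were again far apart, at a log2 fold change of -1.54 (SE 0.0854), or 2.91-fold lower. In experiment 2 the wells stood at 66.4, 77.2 and 91.3 CPM in the controls and 49.1, 57.2 and 85.6 CPM at 10 mM. Most 10 mM wells lay below the controls, and the exception was again replicate 6. At 10 mM the log2 fold change was -0.34 (SE 0.0987, edgeR adjusted p = 0.0924), from -0.53 to -0.14 in its 95% interval.

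Among the genes for proteins along the thin filament, Cnn1, which encodes the smooth muscle calponin, an inhibitor of the myosin ATPase, was with Tpm2 the one that differed most. Its controls in experiment 1 stood at 84.7, 92.8 and 118 CPM and its 30 mM wells at 17.7, 25.7 and 32.2 CPM. No 30 mM well came near a control. The log2 fold change was -1.91 (SE 0.122), or 3.77-fold lower. At 10 mM the wells stood at 6.70, 8.65 and 11.3 CPM, against 11.8, 13.9 and 19.5 CPM in their controls. Every 10 mM well was below every control, the only gene of the set for which this held, where 0.384% of the 13538 genes tested at that dose were lower without overlap. The log2 fold change of -0.76 (SE 0.210) had an edgeR adjusted p of 0.0650 and did not pass, and these levels rested on 9 to 30 counts per well.

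Tagln encodes transgelin (SM22 alpha), an actin-binding protein used as an early marker of smooth muscle. It stood at 49.6, 60.3 and 70.0 CPM in the controls of experiment 1 and at 12.3, 17.5 and 26.5 CPM at 30 mM. The groups did not overlap, and the log2 fold change was -1.68 (SE 0.141), or 3.20-fold lower. In experiment 2 the gene had 3 to 18 counts per well in both groups and was too low to be tested, with 7.41 ± 3.94 CPM (SD, n = 6) in the controls and 5.25 ± 3.50 CPM (SD, n = 6) at 10 mM. Both groups spread over the same range there.

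Tpm1, a tropomyosin gene with muscle and non-muscle isoforms that counts per gene cannot separate, was the most abundant of the set in the controls by count. It stood at 447, 496 and 520 CPM in the controls of experiment 1 and at 227, 278 and 304 CPM at 30 mM. The groups were separate, though the change was smaller than for the genes above, at a log2 fold change of -0.83 (SE 0.0702), or 1.78-fold lower. At 10 mM it stood at 180, 199 and 263 CPM, against 205, 238 and 281 CPM in the controls. Ethanol and control wells overlapped, and the log2 change of -0.21 (SE 0.0702, edgeR adjusted p = 0.179) did not pass. Tpm2, the beta-tropomyosin gene, was much scarcer, at 22.7, 32.5 and 59.8 CPM in the controls of experiment 1 and 3.96, 7.69 and 18.7 CPM at 30 mM. Its groups were separate in spite of a wide spread within each, with a log2 fold change of -1.92 (SE 0.233), or 3.78-fold lower. In experiment 2 the wells of Tpm2 overlapped, and the log2 change of -0.56 (SE 0.252, edgeR adjusted p = 0.439) rested on 7 to 28 counts per well.

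Cald1 encodes caldesmon, which blocks myosin binding to actin, again in smooth muscle and non-muscle forms. Its wells stood at 358, 440 and 465 CPM in the controls of experiment 1 and at 275, 300 and 340 CPM at 30 mM. The groups were close but separate, with a log2 fold change of -0.47 (SE 0.0670), or 1.39-fold lower. At 10 mM the log2 fold change was 0.01 (SE 0.0628, edgeR adjusted p = 0.981), with a 95% interval from -0.12 to 0.13. Of all the genes here this was the tightest limit at that dose.

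Lmod1 encodes leiomodin 1, which nucleates actin filaments in smooth muscle. It differed from the other genes in that its wells overlapped in every comparison, with 17.7, 23.5 and 32.0 CPM in the controls of experiment 1 and 13.9, 19.8 and 23.8 CPM at 30 mM. The log2 fold change at 30 mM was -0.35 (SE 0.176), with a 95% interval from -0.70 to 0.01, so a fall of the size seen for Cald1 lies within it. At 10 mM it was -0.33 (SE 0.191, edgeR adjusted p = 0.587). Flna encodes filamin A, an actin crosslinker present in most cell types. Its wells stood at 298, 335 and 355 CPM in the controls of experiment 1 and at 196, 213 and 278 CPM at 30 mM. The groups were separate, although replicate 2 at 30 mM lay far above the other 5 ethanol wells, and the log2 fold change was -0.56 (SE 0.0716), or 1.48-fold lower. At 10 mM the log2 fold change of Flna was -0.05 (SE 0.0792, edgeR adjusted p = 0.889), with a 95% interval from -0.21 to 0.10.

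At 10 mM, 0 of the 8 contractile genes tested passed an adjusted p of 0.05 in edgeR, where 0.657% of 13538 genes did, 0.266% lower and 0.391% higher. Of the 8, 4 had an unadjusted p under 0.05 (Cnn1, Myl9, Tpm1 and Tpm2), all of them lower, where 10.1% of all genes tested had such a p, 4.72% with a lower level. Of the same 8 genes, 7 had a negative log2 fold change, with a median of -0.27 over the 8 and 0.00 over all genes. DESeq2 also called 0, with 3 at an unadjusted p under 0.05, and limma voom called 0 with 4. One well bore on this. Replicate 6 at 10 mM was the highest of its group for 6 of the 9 genes, and the 9 genes summed to 908 CPM in it, against 657 to 720 CPM in the other 5 wells. Without it 2 genes passed, Myl9 at a log2 fold change of -0.46 (edgeR adjusted p = 0.00394) and Tpm1 at -0.28 (edgeR adjusted p = 0.0145). Acta2 was then at -0.43 (edgeR adjusted p = 0.293) and Cald1 at -0.04. In 11 of the 12 fits that left out a well, 0 genes passed. Replicate 6 was singled out by its high levels of these same genes, and dropping it lowers the ethanol group by construction. Nothing is therefore read from these 2 calls. The set was chosen with the 10 mM wells in view through the difference between the doses, so these values are no independent check of the 30 mM ones.

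**Figure D2:**
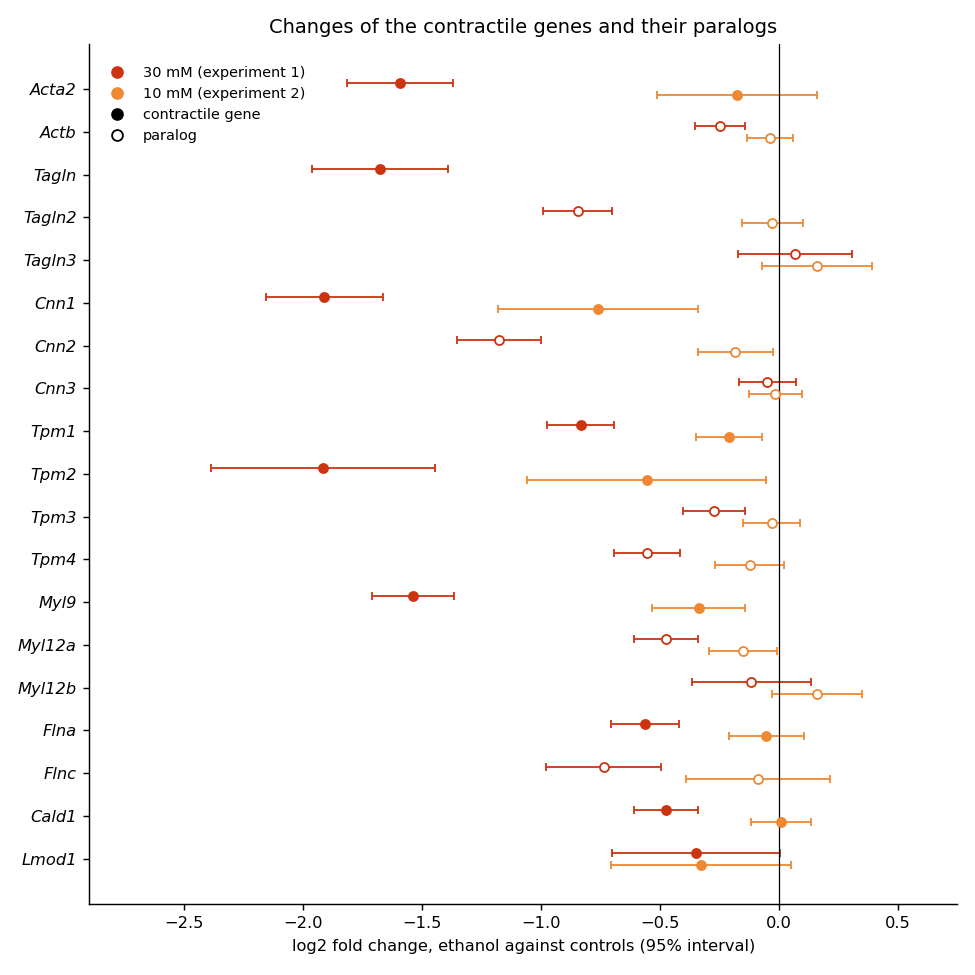
Log2 fold change of ethanol against the controls of the same experiment (horizontal axis) with its 95% interval, at 30 mM in red and 10 mM in orange. Filled points are the contractile genes and open points their paralogs, and Tagln has no point at 10 mM because it was not tested. At 30 mM Cnn1 lies at -1.91 and its paralog Cnn3 at -0.05.

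The difference between the doses was taken as the change at 30 mM minus that at 10 mM. It was -1.43 (SE 0.240) for Acta2, -1.37 (SE 0.379) for Tpm2, -1.21 (SE 0.143) for Myl9 and -1.16 (SE 0.257) for Cnn1 on the log2 scale. For Tpm1 it was -0.63 (SE 0.107), for Flna -0.52 (SE 0.117) and for Cald1 -0.49 (SE 0.0968). Tagln was at -1.18 (SE 0.374) and Lmod1 at -0.03 (SE 0.266). Of the 9 genes 7, all but Tagln and Lmod1, were called lower in edgeR, as were 2.40% of 14655 genes. Nothing is read from this count, since the genes were chosen with the difference known. The count moved between 6 and 8 when single wells were left out. Without replicate 6 at 10 mM it was 6, Tpm2 at -1.27 no longer passing, and without replicate 1 at 30 mM it was 8, Tagln passing at -1.16.

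Untreated wells of the experiments differed as well. All 9 genes were higher in the controls of experiment 1 than in those of experiment 2 with an adjusted p under 0.05 in edgeR, as were 21.3% of 13479 genes tested, and 8 of them without overlap between the wells, as for 9.94% of genes. The log2 difference was 3.92 (SE 0.0952) for Acta2, which was 15.1-fold higher, 2.96 (SE 0.172) for Tagln, 2.67 (SE 0.125) for Cnn1 and 2.09 (SE 0.0752) for Myl9. It was 1.61 (SE 0.190) for Tpm2 and 1.00 for both Tpm1 (SE 0.0615) and Flna (SE 0.0668). Cald1 at 0.84 (SE 0.0613) and Lmod1 at 0.64 (SE 0.170) differed least. This comparison and the one at 30 mM share the controls of experiment 1, so their values are only set side by side. Some cell type markers differed between these controls as well. The 10 microglial markers summed to 125 to 224 CPM in controls of experiment 1 and 1641 to 2042 CPM in those of experiment 2. The 8 markers of mature smooth muscle summed to at least 58.2 CPM in controls of experiment 1. In those of experiment 2 they summed to at most 50.7 CPM. Of 3 of them tested, 2 were called higher in edgeR and 0 lower. Fibroblast and meningeal sums overlapped, at 856 to 1244 CPM and 887 to 1130 CPM, with 2 of 10 markers higher and 5 lower. Of 6 pericyte and mural markers tested, 0 were higher and 1 lower. The part of these cell types in the difference was not tested.

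Across the 4 groups, the controls of experiment 1 had the highest mean for all 9 genes, and only for Lmod1 did they overlap the next group. Ethanol wells at 30 mM ranked second for every gene except Tpm2. For Acta2 and Tagln they lay above all wells of experiment 2, so that with 30 mM ethanol Acta2 was still at 120 ± 36.6 CPM (SD, n = 6) where the untreated controls of experiment 2 had 24.3 ± 3.86 CPM (SD, n = 6). Flna at 30 mM lay above the controls of experiment 2 but reached the highest 10 mM well. For Cnn1, Myl9, Tpm1 and Cald1 the 30 mM wells overlapped the group next below, and Tpm2 at 30 mM, with 9.09 ± 5.04 CPM (SD, n = 6), overlapped both groups of experiment 2. Controls and 10 mM wells of experiment 2 overlapped for every gene except Cnn1.

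Because most genes of the set have close relatives that act in non-muscle cells, 8 of the 9, all but Cald1, were also set against relatives in the same well, as a share of counts that does not depend on the scaling between wells. Acta2 made up 6.21% ± 0.531 (SD, n = 6) of the counts of Acta2, Actb, Actg1 and Actg2 in the controls of experiment 1, 2.56% ± 0.784 at 30 mM, 0.458% ± 0.0696 in the controls of experiment 2 and 0.407% ± 0.145 at 10 mM. Nearly all the rest was Actb, the cytoplasmic beta-actin, while Actg1, which has near-identical copies, received only 4.18 to 8.43 CPM on average per group and is uncertain. Cnn1 was 9.54% ± 0.818 of the calponin counts in the controls of experiment 1 and 3.35% ± 0.642 at 30 mM, while Cnn2 took 25.5% ± 1.39 and 14.7% ± 1.85 and Cnn3, like Cnn2 a calponin of non-muscle cells, 65.0% ± 1.77 and 82.0% ± 2.32. Ethanol and control wells of experiment 1 did not overlap for any of these shares of Acta2 and the calponins.

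In the transgelin family, Tagln was 17.3% ± 1.62 (SD, n = 6) of counts in the controls of experiment 1 and 9.42% ± 2.21 at 30 mM. Myl9 was 48.5% ± 2.60 of the regulatory light chain counts (Myl9, Myl12a and Myl12b) in the same controls and 30.0% ± 4.44 at 30 mM. Both shares were thus lower with ethanol in experiment 1. Among the tropomyosins, Tpm1 went from 45.9% ± 0.827 to 39.5% ± 2.76 and Tpm2 from 3.34% ± 1.10 to 1.32% ± 0.694. The Tpm2 share reached 2.66% in the highest 30 mM well, above the 2.34% of the lowest control. For Tpm2, Lmod1 and Flna the wells of experiment 1 thus overlapped. Lmod1 was 99.4% ± 1.41 of the leiomodin counts in the controls of experiment 1 and 97.4% ± 3.57 at 30 mM. Flna was 85.3% ± 0.948 of the counts of Flna and Flnc in those controls and 86.7% ± 2.19 at 30 mM, a pair chosen after the values were seen. The Flna share thus differed by less than the spread between the 30 mM wells, both genes being lower. These shares use the wells by which the genes were chosen and have no test.

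**Figure D3:**
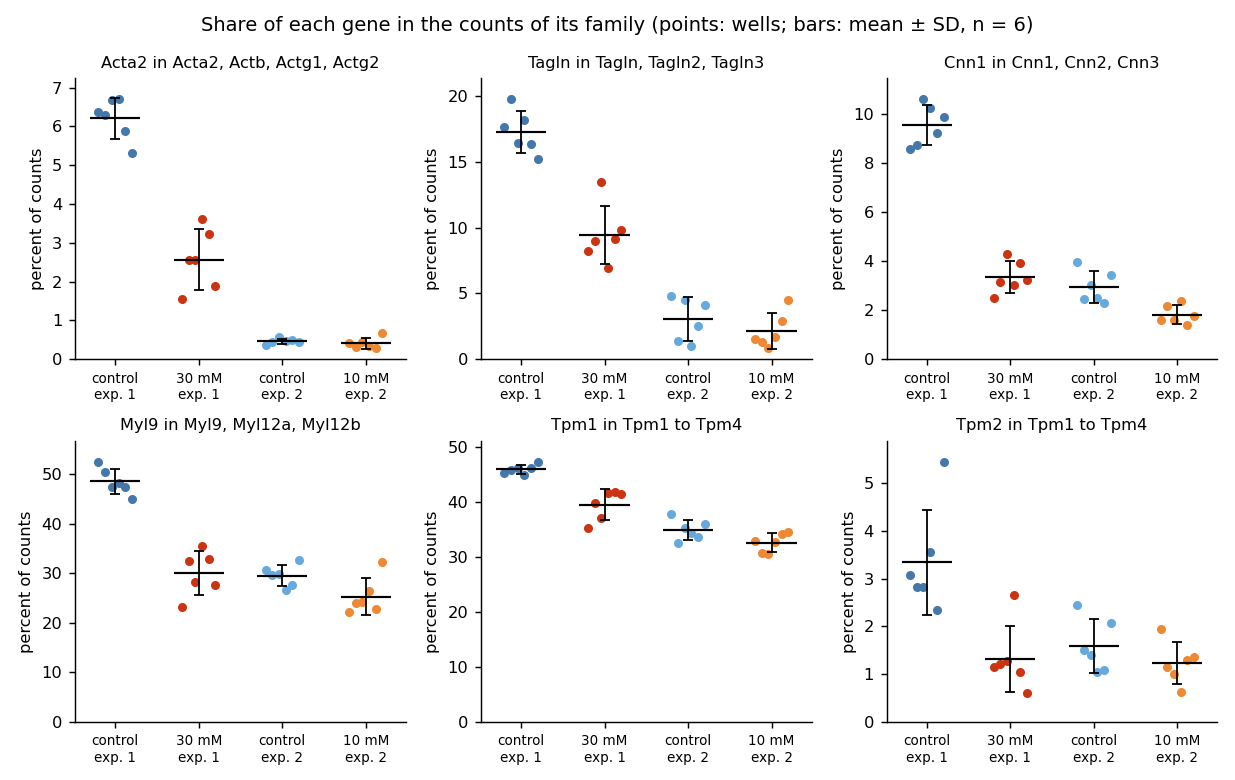
Share of 6 contractile genes in the counts of their gene family, in percent (vertical axis, from 0), for the 24 wells. Points are wells and bars the mean ± SD of 6 wells. The Acta2 share is 6.21% in the controls of experiment 1 and 2.56% at 30 mM. In the same groups the Tpm2 share is 3.34% and 1.32%, with overlapping wells.

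The paralogs themselves were tested as part of a list of 69 other genes of the contractile machinery and its control. At 30 mM, 6.65% of all genes tested were lower and 3.02% higher in edgeR. Of 10 paralogs tested there, 7 were lower, 0 higher and 3 not called. The largest falls were those of Cnn2, which encodes a calponin of non-muscle cells, at -1.18 (SE 0.0872), and of Tagln2, a transgelin of non-muscle cells, at -0.85 (SE 0.0727). The filamin gene Flnc fell by 0.74 (SE 0.119) on the log2 scale, and the tropomyosin genes Tpm4 and Tpm3 fell by 0.55 (SE 0.0693) and 0.27 (SE 0.0647). Actb fell by 0.25 (SE 0.0528). Cnn3 at -0.05 (SE 0.0591), the neuronal transgelin Tagln3 at 0.07 (SE 0.118) and Actg1 at 0.15 (SE 0.263) did not pass. At 10 mM, 0 of 9 paralogs tested passed in edgeR, where 0.657% of all genes did. Log2 fold changes of the 9 paralogs ran from -0.18 to 0.16.

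Among all genes tested at 30 mM, 6.65% were lower and 3.02% higher. Of the motor and light chain genes, 3 of 6 tested were lower at that dose and 0 higher. They were Myl12a, a regulatory light chain of non-muscle myosin, at -0.47 (SE 0.0665), Myh10, the non-muscle myosin IIB heavy chain, at -0.40 (SE 0.0952), and the essential light chain Myl6 at -0.20 (SE 0.0616). Among thin filament and adhesion genes 5 of 13 were lower and 0 higher, led by the actin-binding Nexn at -0.82 (SE 0.106), the alpha-actinin Actn1 at -0.50 (SE 0.0686) and talin, Tln1, at -0.50 (SE 0.0825). Of the genes that control myosin phosphorylation, 2 of 10 were lower, the phosphatase inhibitor Ppp1r14b at -0.33 (SE 0.0891) and the kinase gene Rock2 at -0.27 (SE 0.0818). None of 10 genes for SRF, its cofactors and other transcription factors passed at 30 mM in edgeR (count 0). As 9.67% of all genes passed there, 0 of 10 is near that share and is not read as a lack of change. Of 12 genes of the TGF-beta pathway, a strong inducer of contractile genes, 1 was lower and 1 higher, the inhibitor Smad7 at 0.43 (SE 0.140, edgeR adjusted p = 0.0425). The Smad7 call did not hold with DESeq2 (adjusted p = 0.0812), limma voom (adjusted p = 0.0645), no filter on low counts, a threshold of 0.01 or in 8 of the 12 fits that left out a well.

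Over all these lists 18 of 61 genes tested were lower at 30 mM, 1 higher and 42 not called. Of all genes tested, 9.67% were called, 6.65% lower and 3.02% higher. The median log2 fold change was -0.14 over the 61 genes and 0.02 over all genes. At 10 mM, 0.266% of all genes tested were lower and 0.391% higher. Of the 59 listed genes tested there, 2 were lower and 0 higher, with a median of -0.04. These were Gata6, a transcription factor of smooth muscle and other mesodermal cells, at -1.11 (SE 0.239, edgeR adjusted p = 0.00774), with 5 to 20 counts per well, and the TGF-beta receptor gene Tgfbr1 at -0.40 (SE 0.105, edgeR adjusted p = 0.0416). Gata6 also passed with each of the 12 wells left out in turn, whereas it had no adjusted p in DESeq2 and did not pass in the joint fit of all wells (adjusted p = 0.0751). Tgfbr1 passed in 1 of those 12 fits and did not pass with DESeq2 (adjusted p = 0.105), limma voom (adjusted p = 0.0518), no filter on low counts, the replicate block or the joint fit. Neither gene passed at 30 mM, where Gata6 was at 0.39 (SE 0.314) and Tgfbr1 at -0.14 (SE 0.169).

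**Figure D4:**
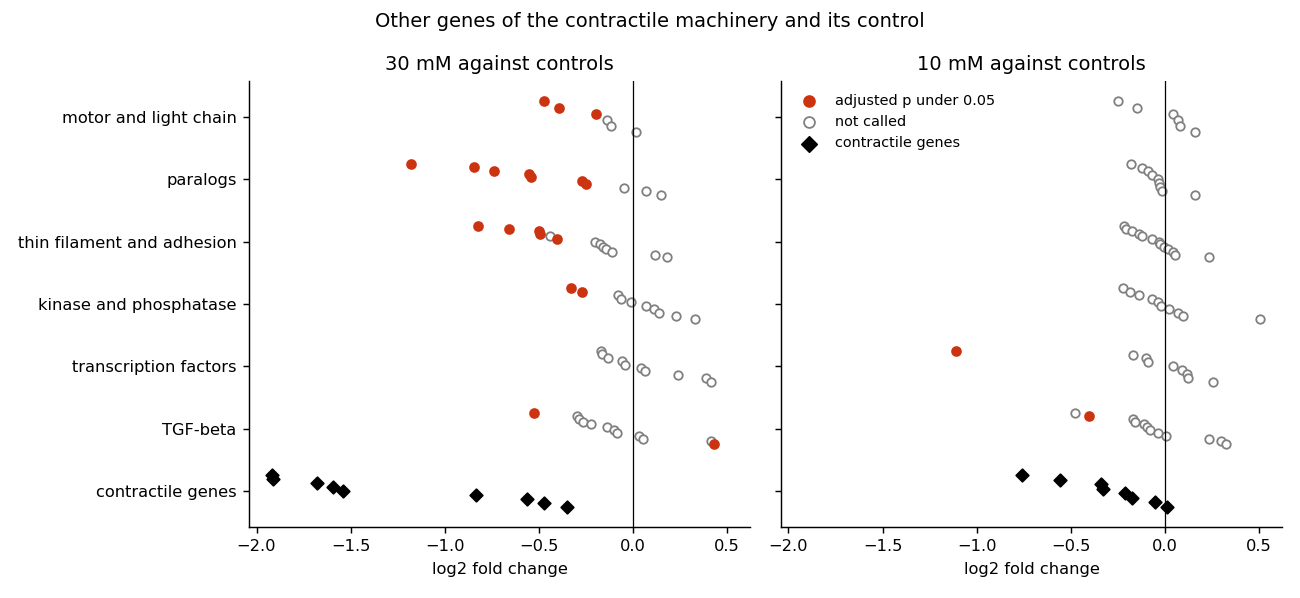
Log2 fold change (horizontal axis) of the tested genes in 6 lists of other contractile and regulatory genes, at 30 mM on the left and 10 mM on the right, each point being a gene. Red points had an adjusted p under 0.05, open points did not, and black diamonds are the contractile genes. At 30 mM 7 of 10 paralogs are red, and at 10 mM the red points are Gata6 and Tgfbr1.

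Markers of the cell types that could carry these transcripts were read in the same wells. Of 8 genes that define mature smooth muscle, 5 averaged at least 3 counts per well in each group of experiment 1 and 3 in each group of experiment 2. The highest were Smtn, at 24.7 CPM on average in the controls of experiment 1 and 18.2 CPM at 30 mM, Synpo2 at 24.3 and 21.3 CPM, and Myocd, the gene of myocardin, at 8.56 and 11.3 CPM. The others were low. Myh11, the smooth muscle myosin heavy chain, had 1 to 3 counts per well in the controls of experiment 1 and 1 to 5 at 30 mM, and Pln had 0 counts in every well but 1. Desmin (Des) had at most 4 counts in any well and the gamma smooth muscle actin Actg2 at most 10. Summed over the 8 markers the level was 58.2 to 76.3 CPM in the controls of experiment 1 and 45.8 to 66.5 CPM at 30 mM, and 0 of the 3 tested passed in edgeR. The log2 fold changes of these 3 ran from -0.44 to 0.41. Pericyte and mural markers summed to 96.3 to 119 CPM and 79.5 to 126 CPM in the same groups, 0 of 5 tested passing in edgeR. Their list of 10 holds Cspg4, which is also a marker of oligodendrocyte precursors, so the sum does not measure mural cells alone. The ranges of both sums overlapped between controls and ethanol. As 9.67% of all genes passed at 30 mM, 0 of so few markers is not read as a lack of change. Many of these markers had too few counts to be tested, and the part of such cells in the contractile levels was not tested.

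Other markers did move with 30 mM ethanol. Of 10 fibroblast and meningeal markers 6 were lower and 0 higher in edgeR, where 6.65% of all genes tested were lower and 3.02% higher. The sum of these 10 markers was 856 to 1244 CPM in the controls and 616 to 804 CPM at 30 mM, with no overlap. None of them was at 0. Their median log2 fold change was -0.58, and 1 of them, Pdgfra, is also a marker of oligodendrocyte precursors. Astrocyte markers summed to 4216 to 5302 CPM in the controls and 5791 to 7204 CPM at 30 mM, 5 of 10 being higher, and 8 of 10 oligodendrocyte markers were higher. Endothelial markers summed to 54.9 to 75.5 CPM and 49.5 to 80.7 CPM, with Cldn5 at 0 in both groups. At 10 mM the fibroblast and meningeal sum was 923 to 968 CPM, against 887 to 1130 CPM in the controls. There 2 of 10 markers were lower in edgeR, as were 0.266% of all genes tested. The part of these cell types in the changes of the contractile genes was not tested.

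Beyond the group means, the genes were compared well by well. Log2 CPM was centred on the mean of each group, so that neither dose nor experiment enters, and correlated over the 24 wells, which share the depth and make-up of each library. Of 36 pairs 33 were positive, with a median Pearson r of 0.32 and a range from -0.25 to 0.73. Acta2 and Myl9 went together most closely (r = 0.73), followed by Tpm1 and Flna (r = 0.70). Myl9 followed the mean of the other 8 genes best (r = 0.68), and Lmod1 least (r = 0.10). Tagln followed the others in experiment 2 (r = 0.75 over 12 wells) but not in experiment 1 (r = -0.10 over 12 wells).

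**Figure D5:**
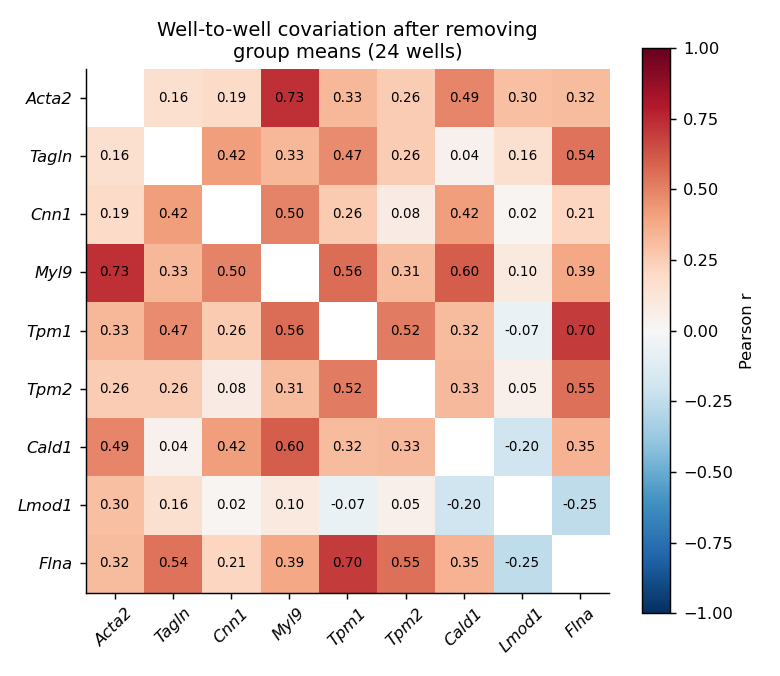
Pearson r between pairs of contractile genes over 24 wells, after log2 CPM was centred on the mean of each group. Colour and the printed number give r, from -0.25 for Lmod1 with Flna to 0.73 for Acta2 with Myl9.

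Other genes were ranked by the same measure against the mean of the 9, over the 24 wells, replicate 6 at 10 mM among them. Of 13350 genes ranked, 166 had an r above 0.5. With 24 wells and so many genes, values of this size also arise by chance, and the number expected was not tested. The ranking is therefore a description, and no link to the contractile genes is read from it. The 10 most alike were Tacc3 (r = 0.72), a protein of the mitotic spindle, the potassium channel gene Kcnk1 (r = 0.68), Stmn1 (r = 0.68), which encodes the microtubule-binding stathmin, Klhl23 (r = 0.66), the proteasome ATPase gene Psmc5 (r = 0.65), Naa40 (r = 0.65), Samd5 (r = 0.64), Eefsec (r = 0.64), Sumo3 (r = 0.64) and Oxld1 (r = 0.64). None of the 69 contractile and regulatory genes listed was among them. Of these 10 genes, 4 were called at 30 mM in edgeR, all lower (Tacc3, Kcnk1, Psmc5 and Sumo3), and 6 were not, with log2 fold changes from -0.54 to 0.03 over the 10. Over all genes tested at 30 mM, 9.67% were called, 6.65% lower. At 10 mM 0 of the 9 tested passed in edgeR, where 0.657% of all genes did. An unadjusted p under 0.05 was found for 2 of the 9 and for 10.1% of all genes. The largest changes at 30 mM were those of Sumo3 and Tacc3: Tacc3 fell by 0.50 (SE 0.104, edgeR adjusted p = 0.000960) and Sumo3 by 0.54 (SE 0.0800, edgeR adjusted p = 4.43e-06) on the log2 scale, and at 10 mM they were at -0.04 (SE 0.0964) and -0.10 (SE 0.0744).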

How the data were processed

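Transcripts were measured by 3′ tag sequencing of 24 wells. The authors deposited raw counts per gene with Ensembl mouse identifiers, made with cutadapt 1.18, STAR and GRCm39 per the submitters' processing notes; the counting tool, annotation release, use of strand and treatment of PCR copies are not given in the sources used here. Counts of overlapping, antisense or near-identical genes are therefore uncertain. Symbols were matched for 52083 of 55359 identifiers (94.1%); of the 2 for Myl12b the one with more counts was used. A few genes of the lists are counted but not reported here by name.

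Each dose was compared with its own controls by edgeR's quasi-likelihood test (edgeR 4.0.16, R 4.3.3), with TMM, filterByExpr (minimum count 10) and Benjamini-Hochberg adjustment over all genes tested; a gene was called at an adjusted p under 0.05. The difference between doses was an interaction over all wells. Intervals are 95% from the SE. CPM used TMM factors of all 24 wells, and log2 CPM for correlations a prior count of 2. No pair of wells of a group held identical values (60 pairs).

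The 9 genes and the gene lists were chosen with earlier results of these data known. All 9 genes are named, then all paralogs, and in each other list up to 3 lower and 3 higher called genes with the smallest p; the genes most alike are the 10 with the largest r at a mean log2 CPM of at least 3. Alternatives were RLE size factors, no filter on low counts, DESeq2 1.42.0, limma voom (limma 3.58.1), a joint fit, a replicate block, a threshold of 0.01 and leaving out each well.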

Additional observations from a re-analysis of the deposited data

Results flagged for a closer look

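In 4 cases a value lay far from the others of their group by Dixon's test, out of 44 series of 6 wells, where chance gives about 2.2. At 10 mM, replicate 6 had 37.6 CPM of Acta2, the other wells having 14.1 to 22.3 CPM, and a sum over the 9 contractile genes of 908 CPM. At 30 mM, Flna was at 278 CPM in replicate 2 against 196 to 213 CPM in the others, and Tpm2 at 18.7 CPM in replicate 4 against 3.96 to 9.23 CPM.

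For 7 genes the change at 30 mM minus that at 10 mM was among those called in the fit over all genes, with values of -1.43 for Acta2, -1.16 for Cnn1, -1.21 for Myl9, -0.63 for Tpm1, -1.37 for Tpm2, -0.49 for Cald1 and -0.52 for Flna. These values are a description, since the genes were chosen with this difference known, and dose and experiment cannot be told apart.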

How the results depend on the processing

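At 30 mM, 8 contractile genes were called under every alternative, among them each well left out in turn, and in the control comparison all 9 were. At 10 mM 0 were called except without 1 well, so the range over wells left out was 0 to 2; for the difference between doses it was 6 to 8. At a threshold of 0.01, 641 genes in all were called at 30 mM, 28 at 10 mM and 173 for the difference between doses. At 10 mM, DESeq2 called 39 genes and the joint fit 21, against 89, and leaving out wells gave 37 to 95. For the difference between doses leaving out wells gave 329 to 759, against 481. Of the other contractile and regulatory genes at 10 mM, 1 was called at 0.01, with no filter, by limma voom and with the replicate block, 0 by DESeq2 (which gave Gata6 no adjusted p) and the joint fit, and 1 to 2 with wells left out, against 2. Log2 fold changes close to 0 changed sign with wells left out: Cald1 at 10 mM ranged from -0.0379 to 0.0444, Flna at 10 mM from -0.126 to 0.0168 and the Lmod1 difference between doses from -0.153 to 0.0443. The cause was not tested.

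The replicate numbers did not pair the wells: deviations of same-numbered wells correlated between -0.169 and 0.234 in experiment 1 and between -0.0380 and 0.0365 in experiment 2, and 1 of 6 and 0 of 6 numbers matched best with their own. With the replicate block 1208 genes were called at 30 mM and 68 at 10 mM, and the contractile genes numbered 8 and 0. At the depth of these wells, Tagln, Tpm2, Cnn1 and Lmod1 in experiment 2 had few counts, which limits the changes that could be detected.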
